A study of Mus musculus with 8 samples.

Results

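The 10 genes described here encode enzymes that break down nucleotides (Entpd1, Entpd2, Entpd5 and Nt5e) and receptors for nucleotides and for adenosine (P2ry1, P2ry2, P2rx4, Adora1, Adora2a and Adora2b). They were taken by symbol from the 46603 rows of the count table, and all 10 had a row. RNA was sequenced from sorted biliary cells of 4 mice, with an EGFP+EpCAM+CD45- library (liver label-retaining cells, LLRCs) and an EGFP-EpCAM+CD45- library (non-LRC cells) from each of JV602, JV621, JV624 and JV6314. All the animals were R26rtTA het/H2B-EGFP het on a mixed C57BL/6 and CBA background, and every one of them was given doxycycline from birth until postnatal day 5 and was sorted at 8 weeks of age. The tetracycline activator is driven from the ubiquitous Rosa26 locus, so labelling was not restricted to a cell type, and hematopoietic cells of this line carry EGFP also without doxycycline. The comparison asks how the label-retaining biliary cells differ in expression from the biliary cells without the label.

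Extracellular ATP and ADP are cleaved to AMP by membrane NTPDases, of which NTPDase1 (CD39, Entpd1) is known from vascular endothelium and leukocytes and NTPDase2 (Entpd2) in liver from portal fibroblasts. Ecto-5'-nucleotidase (CD73, Nt5e) turns the AMP into adenosine. ATP and its products act on P2X channels, P2Y receptors and adenosine receptors, and in bile ducts nucleotides released into bile are known to stimulate secretion by cholangiocytes through P2Y2 and other receptors.

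Entpd1 was the member that stood apart between the groups, and its promoters are given first, with that of Entpd2, the other surface NTPDase gene among the members, for contrast. Entpd1 lies on chromosome 19 (40612366 to 40741602 of GRCm38, plus strand) and has a pair of transcript starts 47404 bases apart, each with its own promoter. The counts are summed over the exons of a gene, so they do not say which start was used. Entpd2 lies on chromosome 2 (25395874 to 25401321, plus strand). The 250 bases before each start are printed 5' to 3' on the plus strand, from RefSeq on GRCm38.p6, at chr19:40612116-40612365, chr19:40659520-40659769 and chr2:25395624-25395873. Capitals mark matches on either strand to a GC box (GGGCGG), a CRE core (TGACG, read as CGTCA on the other strand) or an ETS site (AGGAAG).
Entpd1 start 1: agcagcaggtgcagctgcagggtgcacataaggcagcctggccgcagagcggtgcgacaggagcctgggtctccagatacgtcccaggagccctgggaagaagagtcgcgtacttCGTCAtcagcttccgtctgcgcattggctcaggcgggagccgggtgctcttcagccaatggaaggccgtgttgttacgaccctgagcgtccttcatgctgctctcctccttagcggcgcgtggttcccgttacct
Entpd1 start 2: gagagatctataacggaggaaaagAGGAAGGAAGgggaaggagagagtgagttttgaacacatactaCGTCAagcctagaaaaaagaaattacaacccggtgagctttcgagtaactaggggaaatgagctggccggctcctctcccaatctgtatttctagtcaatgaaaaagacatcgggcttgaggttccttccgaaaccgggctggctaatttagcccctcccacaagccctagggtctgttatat
Entpd2: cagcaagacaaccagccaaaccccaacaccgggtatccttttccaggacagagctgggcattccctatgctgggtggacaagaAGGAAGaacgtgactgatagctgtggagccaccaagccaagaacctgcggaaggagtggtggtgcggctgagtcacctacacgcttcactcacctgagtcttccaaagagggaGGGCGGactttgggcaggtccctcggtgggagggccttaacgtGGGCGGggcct
The upstream start of Entpd1 has a GC content of 62.4% in this window, the downstream start 47.2% and Entpd2 59.2%. A single CRE core lies 135 to 131 bases before the upstream Entpd1 start. The downstream start has a CRE core at 183 to 179 bases and 2 ETS matches that overlap each other, at 226 to 221 and 222 to 217 bases. Entpd2 has GC boxes at 54 to 49 and 11 to 6 bases and an ETS match at 167 to 162 bases, while neither Entpd1 window holds these GC box letters. Of all 32851 promoter windows of this length, 32.7% hold the GC box, 17.8% the CRE core and 29.5% the ETS site, so a match is a common feature and says nothing of binding.

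LLRC libraries held 7860021 to 9851819 counts in total and non-LRC libraries 4670132 to 8056103. Genes with a count numbered 18488 to 20430 in LLRCs and 14234 to 18930 in non-LRC cells, with the lowest number in the non-LRC library of JV621. The summed level of 8 cholangiocyte markers was 113300 to 220300 CPM (counts per 1e6 reads after TMM, edgeR's correction of library sizes for composition) in LLRCs and 65500 to 160600 CPM in non-LRC cells. Spp1 made up nearly all of it, with means of 168400 and 116600 CPM, followed by Epcam with 583.5 and 551.0 CPM. All 8 markers were read in every library, which does not measure the purity of the cells. Ptprc, which encodes CD45, was counted 5, 34, 14 and 59 times in LLRCs, against 0, 0, 0 and 7 times in non-LRC cells, in the order JV602, JV621, JV624 and JV6314 that is kept for all values below. The non-LRC library of JV6314 also held the highest sum of 8 pancreatic acinar markers, 1089 CPM against 5.38 to 22.9 CPM in the other 3 and 1.89 to 7.46 CPM in LLRCs. All fold changes are LLRC over non-LRC from edgeR's quasi-likelihood test, with p adjusted over the 13605 genes that passed the expression filter. In that test 0 genes (0%) had an adjusted p below 0.05 and 702 had an unadjusted p below 0.05. Of the 702, 485 were lower in LLRCs, or 3.56% of all genes tested. DESeq2's Wald test called 221 genes. With limma voom 0 were called, and it was run throughout with sample quality weights, which count the libraries unequally.

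Entpd1 was low in every LLRC library and was read in quantity in every non-LRC library. LLRC libraries held 3, 21, 4 and 11 counts of Entpd1, or 0.291, 2.48, 0.588 and 1.22 CPM. The non-LRC libraries held 304, 251, 250 and 664 counts, or 38.1, 52.4, 39.5 and 131.0 CPM. The groups did not overlap, with the LLRC libraries below the non-LRC libraries as in 1.91% of all genes tested, with the non-LRC library of JV6314 the highest and the LLRC libraries of JV602 and JV624 at the edge of detection. LLRCs had a mean of 1.15 ± 0.973 CPM and non-LRC cells one of 65.2 ± 44.3 CPM (SD, n = 4 each), or 56.9-fold more. Without its highest library, JV6314, the non-LRC mean was 43.3 ± 7.91 CPM, and without JV621 the LLRC mean was 0.700 CPM. Within each mouse the non-LRC level was 131-fold (JV602, 95% exact interval 44.4 to 638), 21.1-fold (JV621, 13.5 to 34.7), 67.1-fold (JV624, 25.9 to 248) and 107-fold (JV6314, 59.6 to 216) the LLRC level. These intervals cover counting error only.

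The log2 fold change of Entpd1 was -5.81 (standard error 0.79) with an unadjusted p of 3.89e-05 by edgeR's quasi-likelihood method, and the adjusted p of 0.0809 missed the threshold of 0.05. That adjusted p was the lowest in this test and was shared with other genes, among them the endothelial markers Tek, whose unadjusted p of 1.49e-05 was smaller, and Kdr. The call depended on the test, while the direction did not. Entpd1 had an adjusted p of 5.22e-13 in DESeq2's Wald test, which called 1.62% of all genes tested. With edgeR's exact test and no filter the adjusted p was 9.82e-08, with 0.417% of genes called. With a newer form of the quasi-likelihood dispersion in edgeR it was 0.0184 (0.529% called), and in the quasi-likelihood test without a filter 0.0490 (0.0399% called). No other member was called in any of these. limma voom gave an adjusted p of 0.0831, and leaving out each library in turn gave log2 fold changes between -6.51 and -5.22 with adjusted p-values between 0.0596 and 0.349 in the edgeR test. Entpd1 is among the genes that the study itself listed from these same libraries, so its direction here is not independent evidence.

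**Figure D1:**
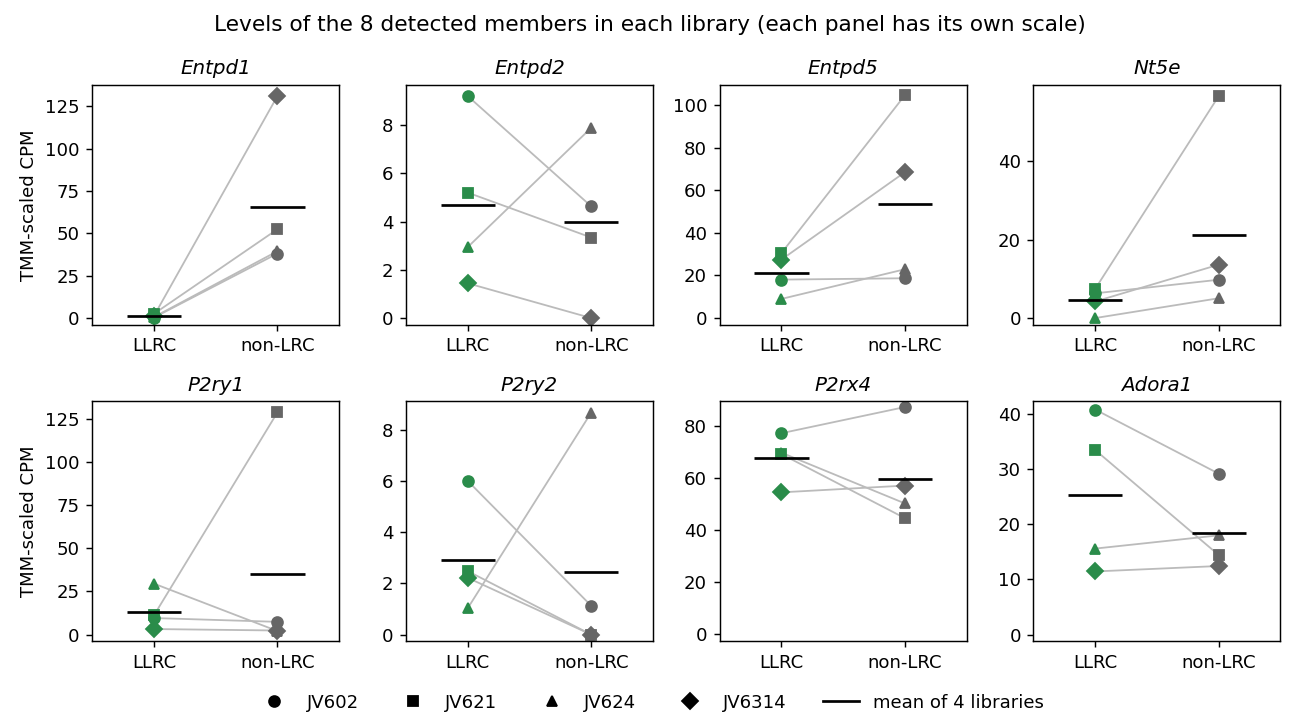
TMM-scaled CPM (vertical axes, a scale for each panel) of the 8 detected members in the 4 LLRC and 4 non-LRC libraries; symbols are mice, grey lines join the libraries of a mouse and black bars are group means. Entpd1 is the member without overlap between the groups, and single non-LRC libraries stand high for Nt5e and P2ry1 (JV621) and for P2ry2 (JV624).

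Markers of endothelium, where Entpd1 is known to be expressed, moved with it. The summed level of 12 endothelial markers was 29.1, 35.7 and 51.3 CPM (lowest, median and highest) in LLRCs and 192, 464 and 648 CPM in non-LRC cells. Of the 12, 9 passed the filter, all 9 had lower values in LLRCs (median log2 fold change -3.69, range -4.66 to -2.42, against -0.01 over all genes tested), and all 9 had no overlap between the groups, with LLRCs below (1.91% of all genes tested). Of the 3 that did not pass the filter, Erg had no overlap either, and Tie1 and Lyve1 overlapped. The list was drawn up with earlier results of these data known. The study itself names Pecam1, Cdh5 and Tek as downregulated in LLRCs, from these same libraries. A gene also passes the filter when either group is high enough, so these counts describe the list and are no support for a shift of it. Like Entpd1, the 9 tested markers missed the threshold in edgeR's quasi-likelihood test and each passed it in at least 1 alternative, with a lowest adjusted p of 8.18e-14 for Tek, against 5.22e-13 for Entpd1. None of the 12 was at 0 throughout the LLRC libraries, Egfl7 and Kdr being the highest there and Kdr and Tek in non-LRC cells. The EpCAM+ gate is meant to leave out endothelial cells. The part of endothelial RNA in the difference of Entpd1 was not tested, and in bulk libraries fewer cells of a type and less RNA per cell cannot be told apart. The library of JV6314 was the highest in both the endothelial sum and Entpd1 among non-LRC cells.

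Entpd1 was also set against these markers within each library, a comparison chosen after its values were seen. Of the counts of Entpd1 and the 12 endothelial markers together, Entpd1 made up 16.6%, 8.90%, 9.14% and 16.8% in non-LRC cells. In LLRCs the shares were 0.99%, 4.62%, 1.57% and 3.42%, with 95% Wilson intervals of 0.337 to 2.87%, 3.04 to 6.95%, 0.614 to 3.98% and 1.92 to 6.01%. The LLRC shares lay below the non-LRC shares, which follows from the fold change of Entpd1 being larger than those of the markers and is no separate evidence on the source of its RNA. Per count of Pecam1, an endothelial junction molecule, Entpd1 had 1.41, 1.36, 1.29 and 2.03 counts in non-LRC cells and 0.333, 0.50, 4.0 and 0.55 counts in LLRCs, where the value of 4.0 for JV624 rests on a single Pecam1 count.

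**Figure D2:**
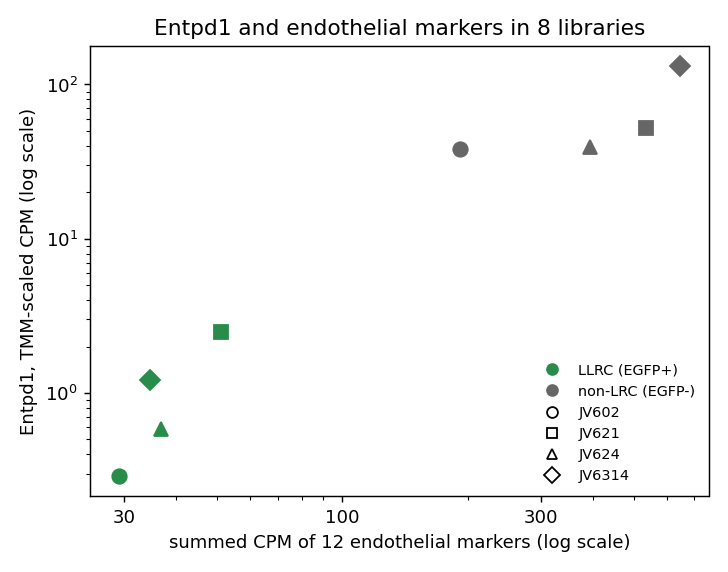
Entpd1 level (vertical, TMM-scaled CPM, log scale) against the summed level of 12 endothelial markers (horizontal, CPM, log scale) in 8 libraries, with colour for the group and symbol for the mouse. The LLRC libraries lie at 0.291 to 2.48 CPM of Entpd1 and 29.1 to 51.3 CPM of the markers, and the non-LRC libraries at 38.1 to 131.0 CPM and 192 to 648 CPM.

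The other marker lists moved less or unevenly. Of 8 hepatocyte markers 7 had lower values in LLRCs (median log2 fold change -1.81), with sums of 2856 to 3356 CPM in LLRCs and 2087 to 6217 CPM in non-LRC cells. Of 8 stellate cell and portal fibroblast markers 4 passed the filter (median -2.22), 3 with lower and 1 with higher values in LLRCs. The sums of all 8 overlapped, 204 to 317 CPM against 190 to 440 CPM. Reln was the highest in both groups, with means of 234.6 and 188.5 CPM. Every other marker of this list had a lower mean in LLRCs, from 2.77-fold (Col3a1) to 25.6-fold (Des, below the filter). For Lrat and Eln the LLRC values lay below the others without overlap, as in 1.91% of all genes tested. The sums of 8 macrophage and leukocyte markers, a second known site of CD39, were 12.1 to 30.8 CPM in LLRCs and 16.1 to 33.2 CPM in non-LRC cells, with Cd3e at 0 in all 8 libraries and Csf1r the highest. The Kupffer cell and macrophage markers Adgre1, Clec4f and C1qa had no count in any LLRC library, nor in the non-LRC libraries of JV602 and JV621, and had 39, 12 and 4 counts in the non-LRC library of JV624 and 8, 10 and 8 in that of JV6314. Their part in the difference of Entpd1 was not tested. Leukocytes were depleted with CD45 beads before the sort, whose CD45- gate is also meant to remove them. The 8 cholangiocyte markers had a median log2 fold change of 0.30, with 7 higher in LLRCs. Of the 8 acinar markers 1 passed the filter, at -1.96. In at least 1 of the alternative tests or settings an adjusted p below 0.05 was reached by Lrat (lowest 6.99e-07), Eln (3.61e-05) and Cyp2e1 (0.0106) from these lists. In edgeR's quasi-likelihood test their adjusted p-values were 0.104, 0.178 and 0.384. DESeq2's Wald test, the alternative with the most calls, called 1.62% of all genes tested.

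Entpd2, whose product cleaves ATP to ADP and ADP only slowly, was low in both groups. It had 95, 44, 20 and 13 counts in LLRCs (9.21, 5.20, 2.94 and 1.44 CPM) and 37, 16, 50 and 0 counts in non-LRC cells (4.63, 3.34, 7.89 and 0 CPM). The groups overlapped, with LLRCs higher in 3 of 4 mice and the highest value in the LLRC library of JV602. LLRCs and non-LRC cells had means of 4.699 ± 3.38 and 3.97 ± 3.27 CPM (SD, n = 4). The edgeR test gave Entpd2 a log2 fold change of 0.24 with a standard error of 1.05 and an adjusted p of 0.9999. Its direction turned when the LLRC library of JV602 (-0.32) or the non-LRC library of JV6314 (-0.17) was left out. Reads on the 28.8% of its exon bases that Npdc1 also covers could not be assigned to Entpd2.

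The counts of Entpd1 and Entpd2 were also compared within each library, which needs no scaling between libraries. Entpd1 made up 89.2%, 94.0% and 83.3% of the summed counts of Entpd1 and Entpd2 among non-LRC cells of JV602, JV621 and JV624, and the whole sum in JV6314, where Entpd2 had no count (95% Wilson interval from 99.4%). The share was 3.06%, 32.3%, 16.7% and 45.8% in LLRCs, with 95% Wilson intervals from 1.05 to 8.62% in JV602 up to 27.9 to 64.9% in JV6314. The shares of the groups did not overlap, which follows from the difference of Entpd1 given above, since Entpd2 overlapped between the groups.

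**Figure D3:**
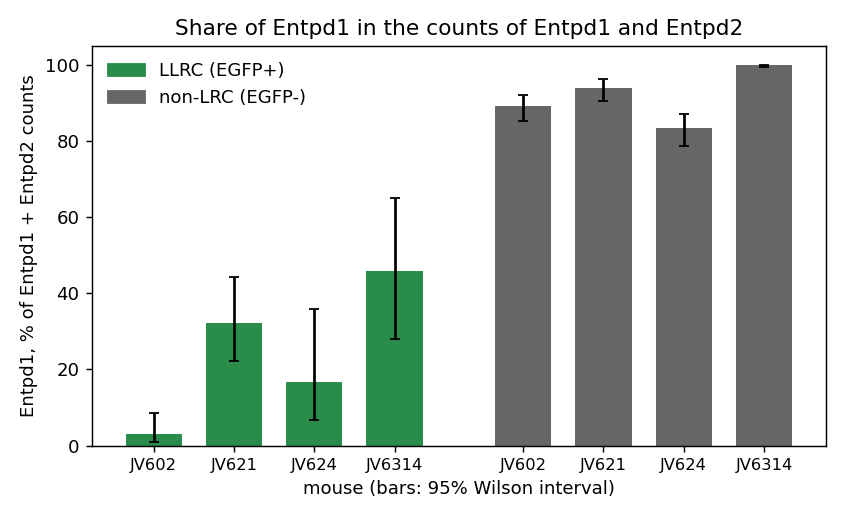
Share of Entpd1 in the summed counts of Entpd1 and Entpd2 (vertical axis, percent) in each library, with bars for libraries, grouped by LLRC and non-LRC, and 95% Wilson intervals as lines. LLRC shares run from 3.06 to 45.8% and non-LRC shares from 83.3% to the whole sum.

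Entpd5, which encodes a nucleoside diphosphatase of the endoplasmic reticulum that aids glycoprotein folding and not a surface enzyme, was read in all libraries. LLRC levels were 18.0, 30.5, 8.97 and 27.4 CPM and non-LRC levels 18.7, 104.6, 22.9 and 68.5 CPM. The LLRC library was the lower one in 4 of 4 mice, by little in JV602, but the ranges of the groups overlapped. Entpd5 had means of 21.2 ± 9.75 and 53.7 ± 40.8 CPM (SD, n = 4), and a log2 fold change of -1.33. Its standard error was 0.63, and the adjusted p was 0.993 by edgeR's quasi-likelihood test. When the non-LRC library of JV621 was left out, the log2 fold change was -0.78, and limma voom with all libraries under sample quality weights gave -0.45.

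Nt5e (chromosome 9, 88327197 to 88372092), the enzyme that makes adenosine from AMP, had 65, 63, 0 and 38 counts in LLRCs and 78, 271, 32 and 69 counts in non-LRC cells. These corresponded to 6.30, 7.45, 0 and 4.22 CPM against 9.77, 56.6, 5.05 and 13.6 CPM. Again the LLRC library was the lower one in 4 of 4 mice, with overlap through JV624, and a single non-LRC library, JV621, stood far above the rest. LLRCs averaged 4.49 ± 3.28 CPM and non-LRC cells 21.3 ± 23.8 CPM (SD, n = 4 each), the latter 9.48 ± 4.29 CPM without JV621. With all libraries the log2 fold change was -2.23 with a standard error of 1.14 (edgeR adjusted p = 0.9999), and it was -1.07 without that library. Neither Entpd5 nor Nt5e passed the test.

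Among the P2 receptors, the ATP-gated channel P2rx4 was the most evenly expressed. LLRCs had 77.4, 69.3, 69.9 and 54.6 CPM, and non-LRC cells 87.4, 44.7, 50.4 and 57.2 CPM. The groups overlapped, with LLRCs lower in 2 mice and higher in 2. P2rx4 (chromosome 5, 122707544 to 122729738) had means of 67.8 ± 9.51 and 59.9 ± 19.0 CPM (SD, n = 4) and a log2 fold change of 0.18 (standard error 0.30). Its log2 fold change lay between 0.06 and 0.40 when each library was left out in turn.

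P2ry1, a Gq-coupled receptor for ADP, was counted 99, 94, 201 and 29 times in LLRCs, against 59, 617, 13 and 12 times in non-LRC cells. The LLRC levels were 9.60, 11.1, 29.6 and 3.22 CPM, and the non-LRC levels 7.39, 128.8, 2.05 and 2.37 CPM. The non-LRC library of JV621 stood far above all others, and in the other 3 mice the LLRC library was the higher one. With that library the log2 fold change was -1.39 with a standard error of 1.30 (edgeR adjusted p = 0.9999), and without it 1.74 (edgeR adjusted p = 0.611), as the non-LRC mean went from 35.2 ± 62.5 to 3.94 ± 2.99 CPM (SD). A fit with the mouse as a block gave 0.32, so the direction of P2ry1 depended on the fit and on a single library. The antisense gene Gm37035 covers 23.1% of its exon bases, where reads counted without strand could not be assigned.

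P2ry2, the receptor for ATP and UTP of the biliary epithelium, was among the lowest members, with 62, 21, 7 and 20 counts in LLRCs and 9, 0, 55 and 0 counts in non-LRC cells. The levels were 6.01, 2.48, 1.03 and 2.22 CPM against 1.13, 0, 8.68 and 0 CPM. LLRCs were higher in 3 of 4 mice, and the non-LRC library of JV624 held the highest value of all. P2ry2 had means of 2.94 ± 2.15 and 2.45 ± 4.19 CPM (SD, n = 4) and a log2 fold change of 0.25 (standard error 1.36), which was 2.78 without the non-LRC library of JV624 and -0.36 without the LLRC library of JV602. In the 2 non-LRC libraries with no count, 3 counts would be 0.626 and 0.592 CPM, which is the limit that a count of 0 allows.

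Adora1, the Gi-coupled adenosine receptor, was the adenosine receptor read in these cells. LLRCs had 421, 283, 106 and 103 counts, and non-LRC cells 233, 69, 114 and 63 counts, or 40.8, 33.5, 15.6 and 11.4 CPM against 29.2, 14.4, 18.0 and 12.4 CPM. The libraries of JV602 were the highest in both groups, and the groups overlapped, with LLRCs higher in 2 of 4 mice. The means were 25.3 ± 14.1 and 18.5 ± 7.48 CPM (SD, n = 4), and the log2 fold change was 0.45 (standard error 0.50). Mybph, on the other strand, covers 20.1% of the exon bases of Adora1 (chromosome 1, 134199223 to 134235431).

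The Gs-coupled receptors Adora2a (chromosome 10) and Adora2b (chromosome 11) had 0 counts in all 8 libraries. A count of 0 allows up to 0.291 to 0.441 CPM in the LLRC libraries and up to 0.376 to 0.626 CPM in the non-LRC libraries, for counting error only. Both genes are free of overlapping exons in the annotation, and neither was tested for want of counts.

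Of the 10 members, 8 passed the expression filter, 4 with higher and 4 with lower values in LLRCs. Their median log2 fold change was -0.58, against -0.01 over all genes tested, where 6647 had higher and 6958 lower values. Entpd1 was the 1 member of 8 with an unadjusted p below 0.05 in the edgeR test, where 3.56% of all genes tested had such a p and were lower in LLRCs. Since a gene passes the filter when either group is high enough, these counts describe the list and are no support for a shift of it.

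Levels were compared between members per kilobase of exon, as mean CPM per kb. The length takes in exon bases shared with another gene, where reads were not counted, so the values of Adora1, P2ry1 and Entpd2 are too low and their places are not set. In LLRCs P2rx4 had the highest mean, 9.65 ± 1.35 CPM per kb (SD, n = 4), followed by Adora1 (4.38), Entpd5 (3.52), P2ry1 (3.12), Entpd2 (2.21), P2ry2 (0.748), Nt5e (0.522) and Entpd1 (0.205 ± 0.174). Neighbours from Adora1 down to Entpd1, the lowest detected member, overlapped in range. In non-LRC cells the highest mean was that of Entpd1 at 11.7 ± 7.94 CPM per kb, followed by Entpd5 (8.89), P2rx4 (8.53), P2ry1 (8.19), Adora1 (3.199), Nt5e (2.47), Entpd2 (1.86) and P2ry2 (0.624). There each member overlapped the next in range, Entpd1 included, so this order is not set beyond the spread. The first place of Entpd1 rested on JV6314, where it had 23.5 CPM per kb. P2rx4 was higher than Entpd1 in JV602 (12.4 against 6.82 CPM per kb) and slightly so in JV624 (7.17 against 7.07), and P2ry1 (30.03) and Entpd5 (17.3) were higher than Entpd1 (9.39) in JV621.

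Of 39 other purinergic genes, 38 had a row, 20 passed the filter, 11 had higher and 9 lower values in LLRCs, and 0 had an adjusted p below 0.05 by any test run. Their median log2 fold change was 0.06, with a range from -3.15 to 1.33. At an unadjusted p below 0.05 in the edgeR test there were 2, Ada and Slc29a1, both lower in LLRCs, where 3.56% of all genes tested had such a p in that direction. Ada, the deaminase that turns adenosine into inosine, was counted 0, 4, 0 and 8 times in LLRCs, against 42, 15, 16 and 9 times in non-LRC cells, with means of 0.340 and 3.17 CPM. Its groups did not overlap in CPM (1.91% of all genes tested), and its log2 fold change of -3.15, with a standard error of 1.11, had an edgeR adjusted p of 0.769. It was -4.19 without the LLRC library of JV6314 and -3.75 with the mouse as a block, and the lowest and highest values with a library left out were -4.19 and -2.73. Slc29a1, the equilibrative nucleoside transporter that carries adenosine across the membrane, had means of 34.0 and 58.7 CPM, also without overlap in CPM, and a log2 fold change of -0.79 with a standard error of 0.29 (edgeR adjusted p = 0.818).

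By role, the 3 other NTPDase genes tested, Entpd4, Entpd6 and Entpd7, had fold changes of 0.09 to 0.44 on the log2 scale, and the 5 pyrophosphatase and phosphatase genes -0.84 to 0.69. The 3 tested genes Ada, Adk and Dpp4 had -3.15 to -0.08, and the 3 nucleoside transporters -0.79 to -0.10. The 5 most abundant of the remaining genes all had log2 fold changes within 1 standard error of 0. Gja1, a connexin whose hemichannels release ATP, had means of 1275 and 1245 CPM (log2 fold change 0.03). Adk, the kinase that returns adenosine to AMP, had 635.5 ± 129.4 and 673.7 ± 136.2 CPM (-0.08). The surface peptidase gene Dpp4 had 392 ± 70.0 and 470.3 ± 138.5 CPM (-0.26). Enpp1, which cleaves ATP to AMP and pyrophosphate, had 63.0 ± 17.3 and 51.0 ± 37.3 CPM (0.30), and Enpp2, which encodes autotaxin, 28.1 ± 14.4 and 24.2 ± 14.9 CPM (0.21).

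**Figure D4:**
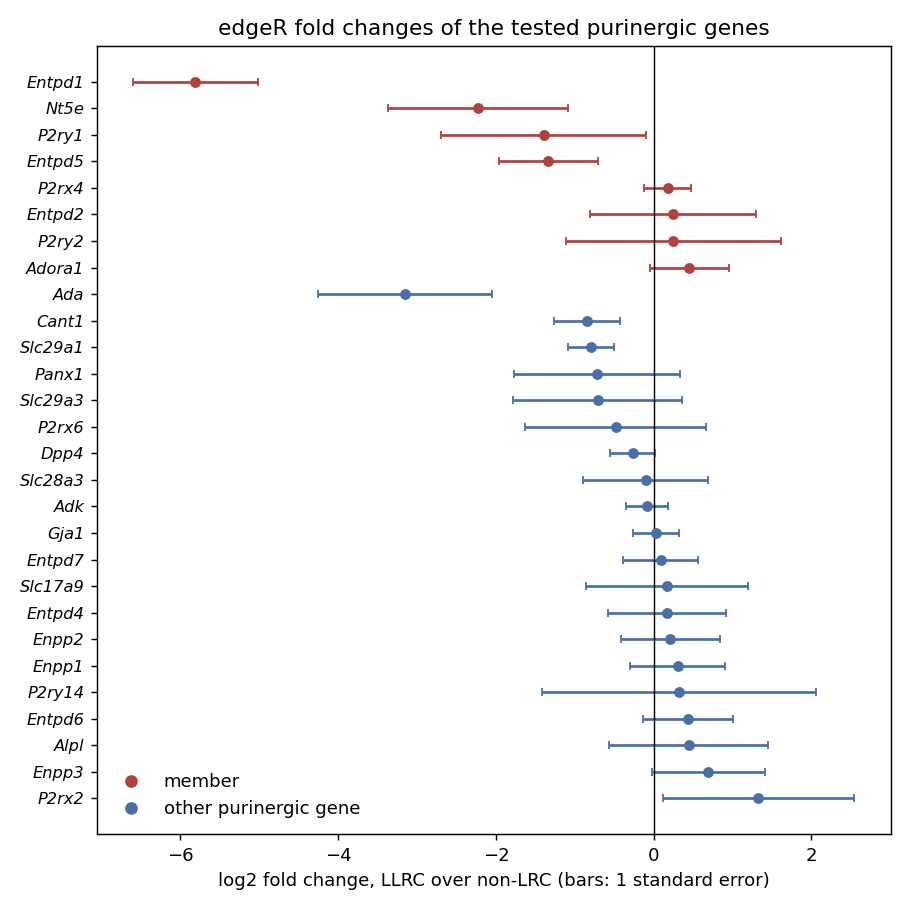
Log2 fold changes, LLRC over non-LRC (horizontal axis), of the 8 tested members (red) and the 20 other tested purinergic genes (blue) in edgeR's quasi-likelihood fit, with lines for 1 standard error. Entpd1 lies at -5.81 and Ada at -3.15, while 11 of the 20 other genes lie above 0.

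The genes whose log2(CPM + 1) followed each member most closely over the 8 libraries are given as a description, by Pearson's r without a test. The libraries fall into groups and share mice, so any gene that separates the groups scores high with Entpd1. For Entpd1 they were Tmem204 (0.988), Pecam1 (0.982) and Cldn5 (0.982), the last 2 of them known from endothelial junctions. For Entpd2 they were Pisd-ps1 (0.986), Neu1 (0.982) and Gm9755 (0.973), for Entpd5 Rab4a (0.974), Tmem127 (0.970) and Rarb (0.965), and for Nt5e Polr3b (0.965), Gm14405 (0.961) and Wdr5 (0.960). Those nearest to P2ry1 were Lipo3 (0.976), Sqle (0.973) and Prpf39 (0.970), and to P2ry2 Gm7935 (0.967), Pgghg (0.965) and Glyctk (0.961). P2rx4 was followed by Zfp128 (0.969), Nfrkb (0.960) and AI464131 (0.959), and Adora1 by Nedd4l (0.967), Ddah2 (0.951) and Slc39a13 (0.951). Of all these genes, Pecam1 is the one on the endothelial marker list.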

How the data were processed

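Libraries were made from RNA of sorted cells. The authors mapped the reads at a service facility (the aligner is not given in the sources used here) and counted them with HTSeq on Ensembl exons (GRCm38.p4), in union mode and ignoring strand, and the deposited values are these raw counts. In union mode a read on exons of more than 1 gene is not counted. The authors' table of their own comparison (edgeR 3.2.4, per the labels), with log2 fold changes, mean abundance, p-values and adjusted p-values, was not used.

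Counts were scaled by TMM and tested with edgeR 4.0.16 in R 4.3.3 (filterByExpr, glmQLFit with default settings, glmQLFTest) with the group as the only term, and p-values were adjusted by Benjamini-Hochberg over 13605 genes with a threshold of 0.05. DESeq2 1.42.0 and limma 3.58.1 served for alternatives. All fits were run on simulated counts with the same dispersion for all genes and no mouse effect. This checks the code and not the error rates of the fits on these libraries. Symbols and coordinates came from GENCODE M21 on GRCm38 for 46091 of 46603 identifiers, and Pnp was not analysed here. Promoter sequences came from RefSeq on GRCm38.p6. The libraries of a mouse pair by animal, and the correlation, across genes, of their deviations from the group means was 0.0898 in JV602, 0.0985 in JV621, 0.00397 in JV624 and 0.188 in JV6314. The floor of 3 counts corresponds to 0.291 to 0.626 CPM. Intervals are exact or Wilson at 95% and cover counting error only.

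The members and the gene lists were chosen with earlier results of these data known. Named were the 10 members, other purinergic genes with an unadjusted p below 0.05 and the 5 most abundant of the rest, the 3 genes most like each tested member, the 2 most abundant genes and those at 0 of each marker list, and Epcam and Ptprc. Further genes of the marker lists, among them Clec4f and C1qa, were named outside these rules. The filter, the normalization and the test were changed, the mouse was added as a block, and each library was left out. The exact test was run together with the change of filter, and limma voom together with sample quality weights.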

Additional observations from a re-analysis of the deposited data

Results flagged for a closer look

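In 4 of the 30 groups of 4 libraries examined, 1 library lay far from the other 3, which is expected of about 1 in 20 groups of independent, normally distributed values. The 30 groups share the same 8 libraries, and all 4 were groups of non-LRC libraries, 2 of them through JV621. Entpd1 stood at 131.0 CPM in the library of JV6314, 3.44 times the lowest non-LRC library. Nt5e stood at 56.6 CPM and P2ry1 at 128.8 CPM in the library of JV621, the one with the fewest genes detected. P2ry2 stood at 8.68 CPM in the library of JV624.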

How the results depend on the processing

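The number of all genes called was 0 with the quasi-likelihood test, 11 without a filter, 72 with the newer dispersion, 115 with edgeR's exact test without a filter and 221 with DESeq2's Wald test, and 0 to 6 when each library was left out, with 6 without the non-LRC library of JV602. The number of members called was 0 in the main fit and 1, Entpd1, in these 4 alternatives with all libraries, and leaving out a library left it at 0. With the mouse as a replicate block 0 genes were called, as in the main fit. The log2 fold change of Entpd1 was then -5.98 (adjusted p = 0.194 in edgeR's quasi-likelihood test) and that of P2ry1 turned to 0.32. P2ry2 went from 0.25 to 2.50 (standard error 1.905 with the block) and Entpd2 from 0.24 to 0.81. For the 15 named genes under 15 alternatives, 203 values kept their direction and side of the threshold, 4 (all Entpd1) passed it and 18 turned in direction. Among the 203 is P2ry1 in DESeq2's Wald test, which kept its direction but was given no adjusted p. P2ry1 was 1.11 with limma voom under sample quality weights and -2.13 to 1.74 when each library was left out. Gja1 was -0.014 with DESeq2's size factors and -0.014 in DESeq2. Leaving out each library gave -0.32 to 0.80 for Entpd2, -0.36 to 2.78 for P2ry2, -0.11 to 0.17 for Gja1, -0.23 to 0.050 for Adk, -0.043 to 0.72 for Enpp1 and -0.086 to 0.66 for Enpp2. The cause was not tested. At these depths a gene under 0.291 to 0.626 CPM cannot be told from 0, which limits Entpd1 in LLRCs, Adora2a and Adora2b.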

Other observations

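Entpd3, another surface NTPDase gene, named after its values were seen and below the expression filter, had LLRC counts of 9 (JV602), 8 (JV621), 16 (JV624) and 0 (JV6314) and no count in any non-LRC library. Among the 38 other purinergic genes with a row, 4 were at 0 in all libraries (P2rx1, P2ry10, P2ry13 and Adora3), and 6 had 1 to 3 counts over all 8 libraries together.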
